A study of Danio rerio with 94 samples.

Results

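The CCAAT/enhancer-binding proteins (C/EBPs) measured in zebrafish embryos exposed to naphthalene and alkyl naphthalenes are described here. Genes were taken by symbol, every gene whose symbol begins with CEBP, and 4 of the 3068 genes of the table met this rule: CEBPA (ENSDARG00000036074), CEBPB (ENSDARG00000042725), CEBPD (ENSDARG00000087303) and CEBPZ (ENSDARG00000045857). Each of the 22 chemicals had 4 pools, each pool held 6 whole embryos chosen as phenotypically normal, with 11 chemicals run on each of 2 exposure days. Exposure was to 20 µM of a chemical in DMSO, or to the vehicle for the controls, from 6 to 24 hours post fertilization (hpf), and RNA was taken at 48 hpf after a day in clean medium. The labels name no strain or genotype. The chemicals of day 1 were 1-ethyl-, 2-isopropyl-, 1,2-dimethyl-, 1,8-dimethyl-, 2,3-dimethyl-, 2,7-dimethyl-, 1,4,5-trimethyl-, 1,6,7-trimethyl-, 2,4,5-trimethyl-, 1,4,6,7-tetramethyl- and 2,6-diethylnaphthalene. Those of day 2 were naphthalene and 1-methyl-, 2-ethyl-, 2-butyl-, 1,3-dimethyl-, 1,4-dimethyl-, 1,5-dimethyl-, 1,6-dimethyl-, 1,7-dimethyl-, 2,6-diisopropyl- and 2,7-di-tert-butylnaphthalene. Chemicals are also called by their substituents, as the 1,4-dimethyl derivative. The control group held 5 pools, 2 of day 1 (A and C) and 3 of day 2 (A, B and C), because the authors removed day 1 pool B as an outlier. Every comparison with control shares these 5 pools.

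C/EBPs are basic leucine zipper transcription factors that bind DNA as dimers with each other or with relatives. In mammals C/EBPβ and C/EBPδ are switched on quickly by glucocorticoids, cytokines and other signals, drive acute phase genes of the liver, and act early in fat cell formation, whereas C/EBPα maintains the differentiated state of liver, fat and myeloid cells and restrains division. CEBPZ shares the name but is not a basic leucine zipper protein. It is a nuclear and nucleolar factor linked to ribosome production.

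Values are log2 CPM, the log2 of a gene's counts scaled to a library size that the authors set by the upper quartile. They come from TempO-Seq, a targeted assay in which probe pairs joined on an RNA are sequenced, so levels of different genes are not compared. The pools held 7.21 to 16.5 M reads (median 10.3 M). All 4 genes had reads in every pool: 15 to 704 reads for CEBPB (median 110), 83 to 852 for CEBPD (264), 490 to 1137 for CEBPA (759) and 937 to 2098 for CEBPZ (1351). At those medians counting alone gives a standard deviation (SD) of 0.14 on the log2 scale for CEBPB and 0.089 for CEBPD, whereas pools of a group differed by an SD of 0.88 and 0.45. The spread of CEBPB between pools was larger than that of 81.6% of the 581 genes within 1 log2 unit of its mean level. For CEBPD the share was 58.9% of 674 genes, for CEBPA 43.0% of 633 and for CEBPZ 20.7% of 516. The RNA was of whole embryos, so fewer cells of a type and less RNA per cell cannot be told apart. Liver marker transcripts (FABP10A, TFA, APOA1A, APOA2 and FGB, summed) lay at 4973 to 7538 CPM in the control pools and 4078 to 9579 CPM in the exposed pools, and those of myeloid cells (MPX, LYZ, CSF3R, MMP9, MMP13A, CORO1A and MPEG1.1) at 332 to 488 and 234 to 580 CPM. The liver sum was almost wholly APOA1A and APOA2, and FABP10A, TFA and FGB made up little of it. Whether this sum measures liver cells was not tested. The myeloid sum was mostly LYZ (mean 8.36 log2 CPM, against 5.52 for MPX and 3.66 or less for the other markers). In each list 1 marker, TFA and MMP13A, had no reads in the median pool.

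CEBPD was the C/EBP with the clearest difference between exposed and control embryos, and it was lower. All 22 chemicals had a mean below the control mean, with log2 fold changes of -1.62 to -0.03 (median -0.70, standard error 0.30 each). The genes called differentially expressed (DEG, limma, Benjamini-Hochberg adjusted p not above 0.05 and a log2 fold change of 1 or more in size) included CEBPD, always as lower, for 1-ethyl-, 1,4-dimethyl- and 1,7-dimethylnaphthalene. The control pools stood at 4.44 and 5.28 log2 CPM on day 1 and at 5.40, 5.69 and 6.14 on day 2. The day 2 controls were all above the day 1 controls, and this split bears on every CEBPD value that follows.

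**Figure D1:**
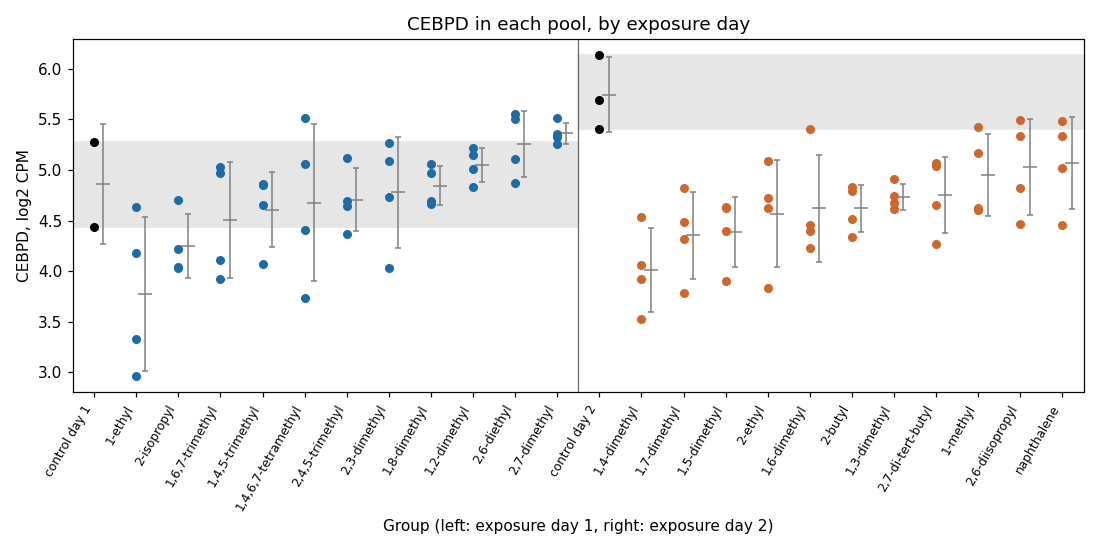
CEBPD level (log2 CPM) in each of the 93 pools, with day 1 groups on the left and day 2 groups on the right, ordered by mean within a day. Points are pools, grey bars are mean ± SD, and the shaded bands span the control pools of that day. On day 2, 40 of the 44 exposed points lie under the band, and on day 1 the points lie on both sides of it (13 below, 25 within and 6 above).

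In embryos exposed to 1-ethylnaphthalene the 4 pools were at 3.33, 4.63, 4.18 and 2.96 log2 CPM. Pools A and E were lower than any control pool by more than 1 log2 unit, and B lay between the control pools of day 1. The mean was 3.77 ± 0.77 (SD, n = 4) against 5.39 ± 0.63 (SD, n = 5), a log2 fold change of -1.62 (standard error 0.30, limma adjusted p = 0.0014). With 1,4-dimethylnaphthalene the pools were at 4.06, 3.92, 3.53 and 4.54. All but the last lay below every control pool, and the log2 fold change was -1.38 (adjusted p = 0.0052). With 1,7-dimethylnaphthalene the pools were at 4.49, 4.32, 4.83 and 3.79, of which 2 lay below every control pool, and the log2 fold change was -1.04 (adjusted p = 0.025). This last call is near the threshold: leaving out 1,7-dimethylnaphthalene pool B, C or E or control day 2 pool B or C ended it, with values of -1.27 to -0.85 over the 9 pools left out in turn. The calls for 1-ethyl- and 1,4-dimethylnaphthalene held when each of their own and the control pools was left out. In a separate fit of each chemical with the 5 control pools none of the 3 passed (adjusted p = 0.5, 0.23 and 0.23).

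The mean of 2-isopropylnaphthalene, which was not called, was lower than that of 1,7-dimethylnaphthalene. Its pools were at 4.04, 4.03, 4.70 and 4.21 log2 CPM, 3 of them below every control pool, and the log2 fold change was -1.14 with an adjusted p of 0.07. With 1,5-dimethylnaphthalene the fold change was -1.0 on the log2 scale (adjusted p = 0.22). The 2 smallest differences were those of 2,7-dimethylnaphthalene, with pools at 5.51, 5.26, 5.32 and 5.36 (log2 fold change -0.03, 95% interval -0.63 to 0.57), and 2,6-diethylnaphthalene (-0.13, interval -0.73 to 0.47). Unsubstituted naphthalene was at 5.02, 5.48, 5.34 and 4.46 (-0.32, adjusted p = 0.89). By unadjusted p, 15 chemicals lay under 0.05. Ordered by mean from 1-ethylnaphthalene to the control group, each of the 22 steps between neighbours was smaller than the larger SD of the pair. No chemical had all 4 pools below all 5 control pools, because control day 1 pool A was itself low, but 25 of the 88 exposed pools were below every control pool and 0 were above.

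A DEG was rare in these comparisons. Over the 22 comparisons together 0.172% of tests called a gene lower and 0.153% called one higher. The share of the 3068 genes called lower was 0.0978% with 1-ethylnaphthalene, where CEBPD was 1 of 3 such genes, beside MRPL40 and FOSAB. It was 0.391% (12 genes) with 1,4-dimethylnaphthalene and 0.815% (25 genes) with 1,7-dimethylnaphthalene. Elsewhere it was 0.293% with 1,4,5-trimethyl- and 1,8-dimethylnaphthalene, 0.261% with 2,4,5-trimethyl- and 2,7-dimethylnaphthalene and 0.196% with 2-ethylnaphthalene. It was 0.163% with 1,3-dimethyl-, 1,6,7-trimethyl- and 2-isopropylnaphthalene and 0.13% with 1,2-dimethyl-, 1,4,6,7-tetramethyl-, 2-butyl- and 2,6-diethylnaphthalene. It was 0.0652% with 2,3-dimethylnaphthalene, 0.0326% with 1,6-dimethyl-, 2,6-diisopropyl- and 2,7-di-tert-butylnaphthalene, and 0% with naphthalene, 1-methyl- and 1,5-dimethylnaphthalene. Of the 4 C/EBP genes, CEBPD made up all 3 calls in 88 tests.

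**Figure D2:**
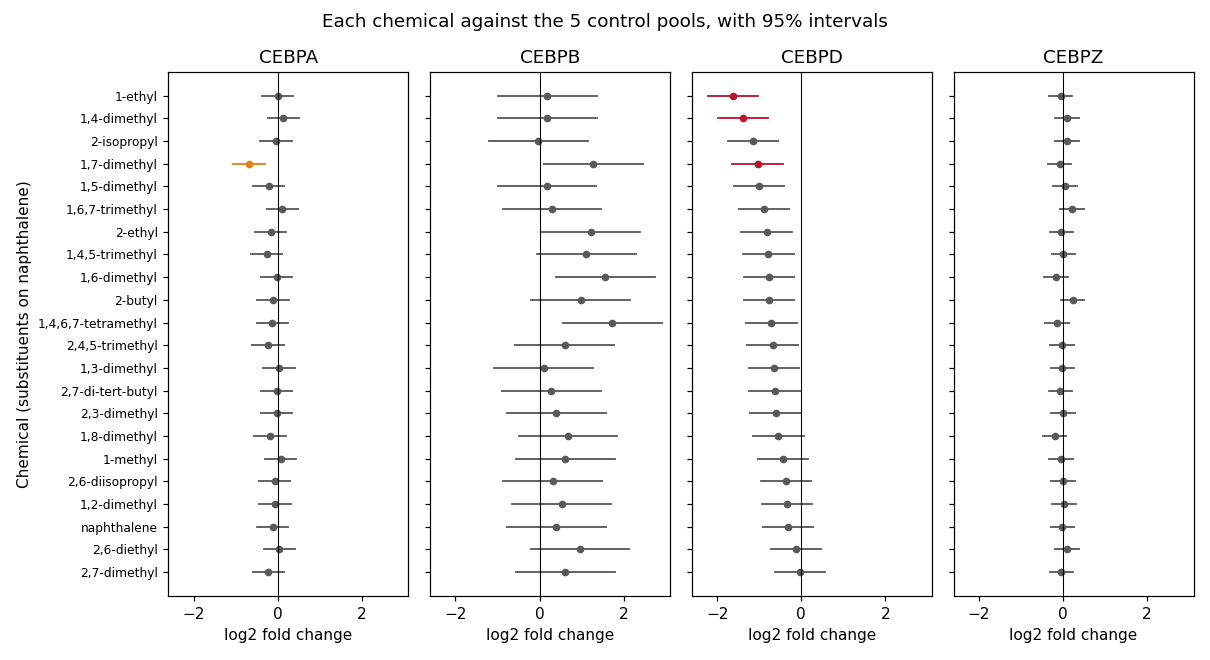
Log2 fold change of the 4 C/EBP genes in each chemical against the 5 control pools, with 95% intervals from limma, ordered by the CEBPD value. Red marks a DEG and orange an adjusted p of at most 0.05 with a fold change under the threshold. The CEBPD column lies left of 0 throughout, CEBPB is right of 0 in 21 of 22 chemicals with wide intervals, and CEBPZ stays within -0.20 to 0.23.

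Averaged over the 22 chemicals, CEBPD was 0.71 below control on the log2 scale (log2 fold change -0.71, standard error 0.21, adjusted p = 0.037). In that contrast 1.76% of all genes were called lower and 1.21% higher by adjusted p alone. An F test over the 22 comparisons gave an adjusted p of 0.0029 for CEBPD, with 7.95% of genes passing, and 0.33, 0.46 and 0.72 for CEBPA, CEBPB and CEBPZ. The mean contrast of CEBPD fell short of the threshold when the control pools of the same day were used (-0.62, adjusted p = 0.074) and with TMM scaling or pools centred on their median (-0.68, adjusted p = 0.053 for both), and also without control day 1 pool C or without any 1 of the 3 day 2 control pools (-0.52 without pool C of day 2, the smallest size).

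Split by day, the lower level of CEBPD was seen against the day 2 controls. The authors had removed the exposure day from the counts, and 88 of the 93 pools were exposed. Near-equal exposed means on the 2 days are thus what that correction leaves, and are not a result. The 44 exposed pools of day 2 had a mean of 4.65 ± 0.47 log2 CPM and those of day 1 4.71 ± 0.59, a difference of -0.06. In that contrast 0 genes passed by limma, and 30 had an unadjusted p under 0.05. The control means were 5.74 on day 2 (n = 3) and 4.86 on day 1 (n = 2). The mean of the day 2 chemicals was lower than that of their controls (log2 fold change -1.1, standard error 0.26, adjusted p = 0.018), with 0.815% of all genes passing. This value lay between -1.27 and -0.90 with each control pool left out, and lost its call without day 2 pool B or C. For day 1 the difference was -0.15 (standard error 0.32, adjusted p = 0.91; 0.913% of genes passed), and it turned to 0.27 without control day 1 pool C. The 2 effects differed by -0.95 (standard error 0.41, unadjusted p = 0.023, adjusted p = 0.54), so a difference between the days was not shown after adjustment; 0.0652% of genes passed. The controls themselves differed by 0.89 between the days (day 2 minus day 1, standard error 0.38, adjusted p = 0.69 in a fit of the 5 control pools), a contrast in which 0% of genes passed by limma and 229 had an unadjusted p under 0.05. With 2 and 3 control pools, a day effect on CEBPD, the correction for day and chance spread of the control pools cannot be told apart.

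**Figure D3:**
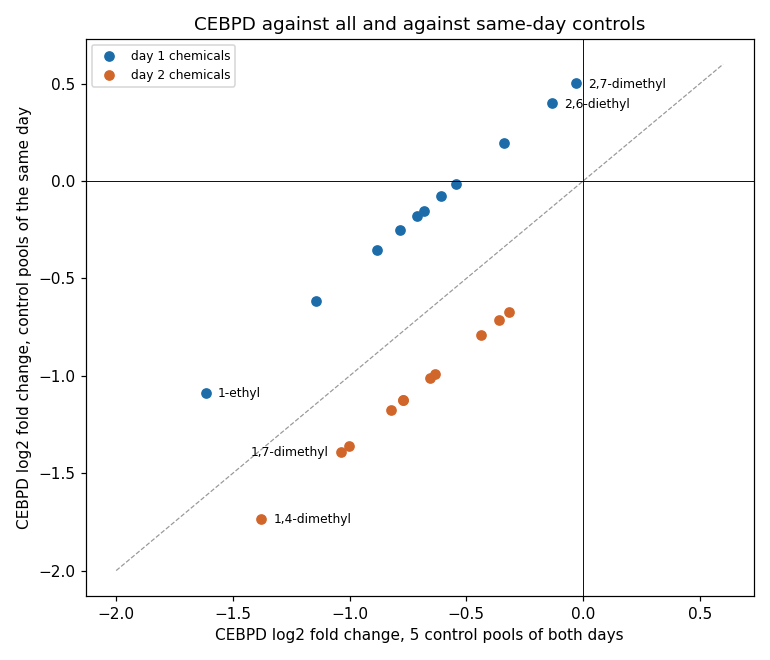
CEBPD log2 fold change of each chemical against the 5 control pools of both days (horizontal) and against the control pools of its own exposure day (vertical). Day 1 chemicals lie above the dashed line of equality and day 2 chemicals below it, and 2,7-dimethyl-, 2,6-diethyl- and 1,2-dimethylnaphthalene have values above 0 on the vertical axis.

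Chemical by chemical, all 11 chemicals of day 2 were below their same-day controls, each with an unadjusted p under 0.05, and 2 of them were DEGs: 1,4-dimethylnaphthalene (-1.73, adjusted p = 0.0019) and 1,7-dimethylnaphthalene (-1.39, adjusted p = 0.0095). Of the 11 chemicals of day 1, 8 were below and 3 above their same-day controls. The 3 above were 2,7-dimethyl- (0.50, adjusted p = 0.59), 2,6-diethyl- (0.40, adjusted p = 0.7) and 1,2-dimethylnaphthalene (0.19, adjusted p = 0.91). The call for 1-ethylnaphthalene was lost against the 2 controls of its day (-1.09, adjusted p = 0.4). The 11 chemicals of a day share their control pools, so these counts are not independent of each other.

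CEBPB moved the other way on average, without passing any test. The control pools were at 1.50 and 3.71 log2 CPM on day 1 and at 3.04, 3.09 and 2.49 on day 2, and 36 of the 88 exposed pools lay above all of them and 2 below. The log2 fold change was above 0 in 21 of 22 chemicals (-0.03 to 1.73, median 0.56, standard error 0.59 each), no chemical was a DEG, and the smallest adjusted p was 0.21. Without control day 1 pool A, the lowest of the controls, the count above 0 was 14 of 22. By unadjusted p, 4 chemicals were under 0.05, all higher: 1,4,6,7-tetramethyl-, 1,6-dimethyl-, 1,7-dimethyl- and 2-ethylnaphthalene. The mean over all chemicals was 0.64 above control (standard error 0.40, interval -0.16 to 1.45, adjusted p = 0.52).

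The highest CEBPB group was the 1,4,6,7-tetramethyl derivative, with pools at 4.33, 5.02, 4.64 and 3.98 log2 CPM. It was the 1 chemical of 22 whose pools all lay above all 5 control pools. The share of all genes separated in this way was not counted. The mean was 4.49 ± 0.44 (SD, n = 4) against 2.77 ± 0.83 (SD, n = 5), a log2 fold change of 1.73 with an interval of 0.55 to 2.90 and an adjusted p of 0.21. Against the 2 controls of its day it was 1.89 (adjusted p = 0.51). With 1,6-dimethylnaphthalene the pools were at 4.13, 5.87, 3.57 and 3.75, and pool C held the highest CEBPB value of all 93 pools (704 reads). With 1,7-dimethylnaphthalene they were at 4.52, 4.03, 4.46 and 3.16, of which 3 were above every control pool. The lowest pool of the series, 1,4-dimethylnaphthalene pool A at 0.82 (15 reads), shared its group with a pool at 4.54, a range wider than that between any 2 group means.

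**Figure D4:**
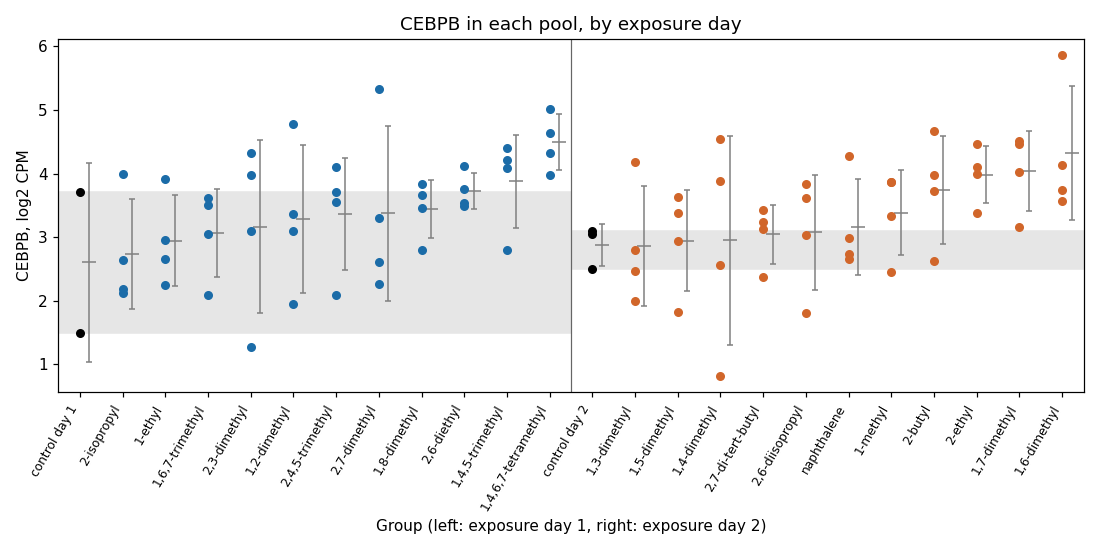
CEBPB level (log2 CPM) in each of the 93 pools, drawn as for CEBPD, with shaded bands spanning the control pools of each day. The day 1 band is wide because its 2 control pools were at 1.50 and 3.71, and the 4 pools of the 1,4,6,7-tetramethyl derivative all lie above both bands.

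The CEBPB controls did not differ between the days beyond their spread (day 2 minus day 1 0.27, standard error 0.78, adjusted p = 0.99). Exposed embryos were 0.80 above the controls on day 1 (standard error 0.64, adjusted p = 0.67) and 0.53 above on day 2 (standard error 0.53, adjusted p = 0.85). The day 1 value rested on control day 1 pool A, at 22 reads: without it the value was -0.30. The order of CEBPB means from 2-isopropylnaphthalene (2.74) to the 1,4,6,7-tetramethyl derivative (4.49) had 22 steps, each smaller than the larger SD of the pair.

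CEBPA was lower with 1 chemical. In 1,7-dimethylnaphthalene its pools were at 5.72, 5.39, 5.51 and 5.85 log2 CPM, and the control pools at 6.10 and 6.26 on day 1 and 6.38, 6.56 and 6.23 on day 2. The groups did not overlap, but the share of all genes without overlap in this comparison was not counted. The log2 fold change was -0.69 (standard error 0.19, adjusted p = 0.016), below the fold threshold of a DEG, in a comparison where 3.59% of genes were called lower by adjusted p alone. The call held in 8 of the 9 settings with 1 pool left out and was lost without 1,7-dimethylnaphthalene pool C (adjusted p = 0.067). It was also lost in a fit of these 2 groups alone (adjusted p = 0.081). In the other 21 chemicals the log2 fold change of CEBPA was -0.27 to 0.13 and none passed. The step from 1,7-dimethylnaphthalene to the next group, 0.42, was the 1 step of 22 in the order of CEBPA means that exceeded the larger SD of its pair. In the 1,7-dimethylnaphthalene pools the liver markers, mostly APOA1A and APOA2, summed to 6171 to 9579 CPM and the myeloid markers, mostly LYZ, to 421 to 515 CPM. The part of cell composition in the CEBPA value was not tested.

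CEBPZ did not pass in any comparison. Its log2 fold change was -0.20 to 0.23 over the 22 chemicals (standard error 0.14), the smallest adjusted p was 0.57, and 0 chemicals had an unadjusted p under 0.05. The mean contrast was -0.01 with an adjusted p of 0.99, and its sign depended on the scaling. Its 95% interval was -0.20 to 0.19.

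Chemicals exposed on the same day were compared by structure at the same nominal concentration of 20 µM. The amount taken up by the embryos was not analysed here, so uptake and structure cannot be told apart in any pair. There were 13 such pairs, contrasted in the fit of all groups, with p values adjusted over the 3068 genes. CEBPA differed in 3 of the 13 pairs, and all 3 set 1,7-dimethylnaphthalene against an isomer with the second methyl group elsewhere. These pairs share the pools of 1,7-dimethylnaphthalene, the group with the lowest CEBPA mean, so they are not independent of each other. It was 0.82 below 1,4-dimethylnaphthalene (log2 difference -0.82, interval -1.21 to -0.43, adjusted p = 0.018; 1.08% of genes passed), 0.72 below 1,3-dimethylnaphthalene (-0.72, interval -1.11 to -0.32, adjusted p = 0.031; 2.12%) and 0.66 below 1,6-dimethylnaphthalene (-0.66, interval -1.05 to -0.27, adjusted p = 0.046; 2.93%). From 1,5-dimethylnaphthalene it differed by -0.47 (interval -0.86 to -0.07, adjusted p = 0.2; 3.23%). Each of the 3 calls was lost when one of several single pools was left out (adjusted p up to 0.18), and leaving out 1,7-dimethylnaphthalene pool C left 0 pairs. None of the 3 passed in a fit of the pair alone.

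CEBPD passed in 0 of the 13 pairs, and 1 pair had an unadjusted p under 0.05. That pair was 1,4-dimethylnaphthalene and 1-methylnaphthalene, which differ by a methyl group at position 4. The CEBPD pools of 1-methylnaphthalene were at 5.17, 5.42, 4.62 and 4.61, all above those of 1,4-dimethylnaphthalene. The share of all genes separated in this way was not counted. The CEBPD difference was -0.94 (interval -1.58 to -0.31, unadjusted p = 0.0039, adjusted p = 0.26; 0.196% of genes passed). Between 1-methylnaphthalene and naphthalene CEBPD differed by -0.12 (interval -0.75 to 0.51; 0.0326% of genes passed), and between 2-butyl- and 2-ethylnaphthalene by 0.05 (interval -0.58 to 0.68; 0.293%). Among the dimethyl isomers of day 2, 1,7-dimethylnaphthalene was 0.34 above 1,4-dimethylnaphthalene (interval -0.29 to 0.98) and 0.03 below 1,5-dimethylnaphthalene (-0.03, interval -0.66 to 0.60). It was 0.38 below 1,3-dimethylnaphthalene (-0.38, interval -1.01 to 0.25) and 0.27 below 1,6-dimethylnaphthalene (-0.27, interval -0.90 to 0.37). Moving a methyl group from 2,3- to 2,7-dimethylnaphthalene went with a difference of 0.58 (interval -0.05 to 1.21, adjusted p = 0.69; 0% of genes passed). These intervals allow differences of more than 0.5 log2 units in 1 or both directions in most pairs.

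CEBPB also passed in 0 of the 13 pairs. The 1 pair with an unadjusted p under 0.05 was 1,4,6,7-tetramethyl- against the 1,6,7-trimethyl derivative, a further methyl group, with a difference of 1.43 (interval 0.19 to 2.66, unadjusted p = 0.024, adjusted p = 0.53; 0.0326% of genes passed). The CEBPB pools of the 1,6,7-trimethyl derivative were at 3.05, 2.09, 3.61 and 3.51, all below those of the 1,4,6,7-tetramethyl derivative. For this pair too, the share of all genes separated in this way was not counted. For CEBPB the difference of 1,7-dimethylnaphthalene from its 1,3-, 1,4- and 1,5-isomers was 1.18, 1.09 and 1.1 with standard errors of 0.62 and adjusted p of 0.33 to 0.43, and from its 1,6-isomer it was -0.29 (adjusted p = 0.91). The remaining pairs, 1,8- against 1,2-dimethyl-, 2,7-di-tert-butyl- against 2,6-diisopropyl-, 1,6,7-trimethyl- against 2,3-dimethyl- and 1,4,5-trimethyl- against 1,8-dimethylnaphthalene, gave no gene an adjusted p under the threshold.

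The 4 genes did not follow each other closely. Over the 93 pools CEBPB and CEBPD had a Pearson r of 0.19, over the 23 group means 0.05 and within groups 0.31. CEBPA and CEBPB had -0.30, -0.43 and -0.24. These are descriptions over pools, and the genes of a pool share its library scaling. The genes whose level was most like that of CEBPD over the 93 pools were FOSAB (r = 0.50; 0.68 over group means and 0.26 within groups), a zebrafish fos of the immediate early class, ANGPTL4 (0.48), a secreted inhibitor of lipoprotein lipase, the ribosomal protein genes RPL9 and RPL32 (0.47 each) and CSRNP1A (0.47). Those most like CEBPB were NDRG1A (0.49), a stress-responsive gene, AARS1 (0.47), the alanyl tRNA synthetase, JUN (0.45), CXCL12A (0.39), a chemokine, and EEF2K (0.39), the kinase of elongation factor 2. For CEBPA they were ZEB2B (0.50), RBP2B (0.47), PDGFBB, SNAI2 (0.45 each) and KIF23 (0.44). For CEBPZ they were RPL26 (0.47), CCT6A (0.42), TM7SF3, ACADM (0.41 each) and GLULB (0.40).

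**Figure D5:**
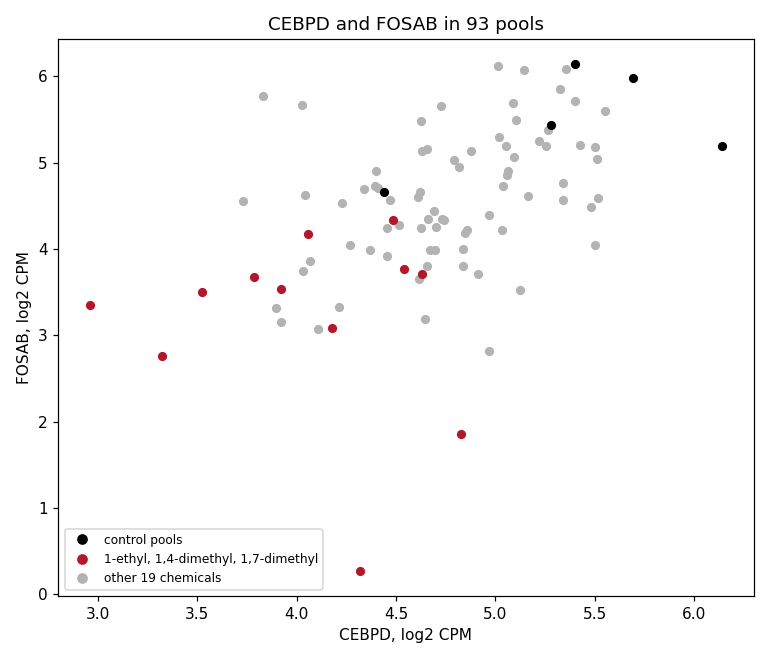
CEBPD against FOSAB (both log2 CPM) in the 93 pools. Red points are the 12 pools of the 3 chemicals in which CEBPD was a DEG. Black points are the 5 control pools and grey points the other chemicals. The r over all pools is 0.50. Every red point has a lower FOSAB value than every control pool. Several chemicals drawn in grey, without a CEBPD call, also have all their FOSAB pools below every control pool. The share of genes separated in this way was not counted.

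FOSAB was a DEG in 4 chemicals, and these included all 3 with a CEBPD call. Its pools with 1-ethylnaphthalene were at 2.76, 3.71, 3.08 and 3.35 log2 CPM and its control pools at 4.66 and 5.44 on day 1 and 6.14, 5.99 and 5.19 on day 2. The log2 fold change of FOSAB was -2.26 (adjusted p = 0.004) with 1-ethyl-, -1.74 (adjusted p = 0.032) with 1,4-dimethyl- and -2.95 (adjusted p = 5.5e-06) with 1,7-dimethylnaphthalene. The same control pools serve both genes. FOSAB was also picked for its likeness to CEBPD over these same pools, so the shared calls are not independent of that choice. Within days, FOSAB exposed pools were 0.61 below the controls on day 1 (log2 difference -0.61, adjusted p = 0.68), and the log2 difference on day 2 was -1.39 (adjusted p = 0.077). Neither passed, and a difference between the days was not shown (-0.78, adjusted p = 0.84).

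The list of signals known in mammals to switch on CEBPB and CEBPD held 18 measured genes. Among them were cytokines, STAT3 and the glucocorticoid receptor NR3C1. It also held SOCS3A, which is a feedback inhibitor of cytokine signalling and not an inducing signal. The cytokines IL6, IL1B, TNFA and IL11A had mean levels of -2.35, -2.31, -2.19 and -2.16 log2 CPM, near the level of a pool with no reads. At such levels the list cannot show whether these cytokines changed. The list had 3 DEG calls, all lower and all of SOCS3A. That is 0.758% of its tests against 0.324% of all tests. SOCS3A was lower with 1,4-dimethyl- (-2.47, adjusted p = 0.0052), 1,8-dimethyl- (-2.52, adjusted p = 0.0081) and 1,7-dimethylnaphthalene (-1.68, adjusted p = 0.043). STAT3 (-0.06) and NR3C1 (0.03) had mean log2 fold changes over the 22 chemicals near 0, with adjusted p of 0.9 and 0.97. The median of the list in that contrast was -0.10, against -0.02 over all genes tested.

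Targets of the glucocorticoid receptor were the list with the most calls, 32 lower and 0 higher over 13 chemicals from 17 measured genes. That is 8.56% of its tests against 0.324% of all tests called in either direction. This list, like the others, was chosen with earlier results of these data known. It holds FKBP5, KLF9 and KLF11A, which the paper reports as the most frequent DEGs of these data. The shares given for the lists are therefore descriptions and not tests. SOCS3A is also in the preceding list, so its 3 calls are counted in both. FKBP5, a co-chaperone of the receptor, was lower in 10 chemicals, KLF11A in 9, KLF9 in 7 and BCL6AA in 2. With the same thresholds the paper counts FKBP5 in more chemicals than this fit does. The reason was not tested. FKBP5 was 4.97 lower with 1,4-dimethylnaphthalene (log2 fold change -4.97, adjusted p = 0.00049) and KLF9 was lower with 1,7-dimethylnaphthalene (log2 fold change -3.81, adjusted p = 0.003). With 1-ethylnaphthalene, where CEBPD had its lowest mean, 0 of the listed glucocorticoid targets were DEGs. FKBP5 had a log2 fold change of -2.91 (adjusted p = 0.29), KLF9 -2.58 (adjusted p = 0.42) and DUSP1 -0.74 (adjusted p = 0.12), and none passed. Their means over the 22 chemicals were -3.10, -2.58 and -0.55. The FKBP5 pools of 1-ethylnaphthalene were split, at 0.38, 4.35, 4.20 and -0.43 log2 CPM, and the lowest control pool was at 3.99. The other listed targets are not given for this chemical. DUSP1, also a listed target, was 0.55 lower on average (log2 fold change -0.55, adjusted p = 0.014), and HSD11B2 0.52 lower (-0.52, adjusted p = 0.00028). The list's median in the mean contrast was -0.55.

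Immediate early genes had 13 calls, all lower, from 18 measured genes (3.28% of tests against 0.324% of all tests, median -0.43). Besides FOSAB these were NR4A3, EGR1, CCN1 and IER2B in 2 chemicals each and JUNBA in 1. NR4A3 was lower with 1,4-dimethyl- (-2.33, adjusted p = 0.0052) and 1,7-dimethylnaphthalene (-1.59, adjusted p = 0.041). Clock genes had 4 calls, all lower, from 10 measured genes (1.82% of tests, median -0.26): NR1D1 in 3 chemicals and PER2 in 1. Within days, FKBP5 was 2.82 below control on day 1 (-2.82, adjusted p = 0.17) and 3.28 below on day 2 (-3.28, adjusted p = 0.029), and KLF11A was 0.87 below on day 1 (-0.87, adjusted p = 0.025) and 0.94 below on day 2 (-0.94, adjusted p = 0.003).

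In 5 of the other lists no gene was called. Over all genes 0.324% of tests were called, so few or no calls are expected in lists as small as these. The acute phase and hepatocyte lists share genes, among them APOA1A, APOA2 and FGB, so they are not separate results. The list of acute phase and liver targets (13 measured, median -0.01), the hepatocyte markers (13, median 0.02), the basic leucine zipper partners (12, median -0.06), the endoplasmic reticulum stress genes (14, median 0.03) and the epidermal markers (5, median 0.01) held 0 DEG calls in the 22 chemicals. SAA, the serum amyloid A gene, had a mean log2 fold change of 1.00 (standard error 0.77, adjusted p = 0.65) from a control level near the floor of the assay. DDIT3, a C/EBP relative that dimerizes with the others, had -0.42 (adjusted p = 0.42). In the fat cell list (8 measured, 0.568% of tests called) FABP11B, a fatty acid binding protein, was lower with 1,2-dimethylnaphthalene (-1.18, adjusted p = 3.8e-07), and PPARG had a mean of 0.24 (adjusted p = 0.39). Among the myeloid markers (14 measured, median 0.09) there were 10 higher calls and 1 lower, 3.57% of tests against 0.324% of all tests. Most were calls of CTSS2.1, which the paper names among its most frequent DEGs, so this share is a description and not a test. The paper counts CTSS2.1 in fewer chemicals than this fit does. CTSS2.1, a cathepsin S gene, took 9 of the higher calls, among them 1,7-dimethylnaphthalene (2.93, adjusted p = 6.6e-06), MPEG1.1 of macrophages took 1 (1.07, adjusted p = 0.042), and MPX, the myeloperoxidase of neutrophils, was lower with the 2,4,5-trimethyl derivative (-1.11, adjusted p = 0.032).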

How the data were processed

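The deposited values are log2 CPM of 3068 genes in 93 pools. Per the labels and the methods, the authors counted TempO-Seq reads per probe with the manufacturer's pipeline, added up the probes of each gene, removed the exposure day with ComBat_seq and scaled the counts by the upper quartile. The labels name edgeR (the authors' tool, with no version) and GRCz11. The correction used the day labels, so the day differences given are those left after it. The authors' deposited comparison table (log2 fold changes, p-values, adjusted p-values and limma's score columns) was not used. The zero level was -2.390207932, and 1 gene with a number for a name was tested but is not named. Whole reads were recovered from the values (100% within 0.02 reads) with a prior count of 2, and give the depths. No pools were identical, and no column was left unused.

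A single limma fit (version 3.58.1, R 4.3.3) held 93 pools in 23 groups without covariates. Chemicals were contrasted with the 5 control pools and p values adjusted over 3068 genes. A DEG needed an adjusted p not above 0.05 and a log2 fold change of 1 or more in size. The scripts were tested on simulated data. Replicate letters did not pair the pools (median r of deviations 0.0017 for pools of the same letter and -0.0009 for others), so no block was used. The paper describes pooling by vial, but it keeps some vials of each treatment for morphology and collects more pools than the vials then left. Whether every pool had its own vial is therefore not clear. The p-values measure the spread between these pools. The C/EBP genes, the 12 gene lists and the structure pairs were chosen with earlier results of these data known. Genes named beside the members were the 5 most correlated with each, up to 4 genes per list called in most chemicals, and list genes called in a chemical with a member called; other list members were named after their values were seen. Alternatives were same-day controls, day as a term, a replicate block, voom, prior counts of 0.5 and 8, TMM scaling, median centring, a filter of 10 reads in 4 pools, trended robust variances, separate fits and each pool left out. The effects within each day, and their difference, were added after the data had been seen.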

Additional observations from a re-analysis of the deposited data

Results flagged for a closer look

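Within each of the 23 groups the highest and the lowest pool of the 4 genes were compared with the rest by Dixon's ratio, and 2 of 92 gene and group combinations had a pool far from the others. Chance alone gives about 1 in 20. CEBPA in 1,6-dimethylnaphthalene pool B was at 5.77 log2 CPM, with the other 3 pools at 6.39 to 6.48, and leaving it out changed the difference from 1,7-dimethylnaphthalene from -0.66 to -0.83. CEBPZ in 2,6-diisopropylnaphthalene pool C was at 6.79, with the others at 7.07 to 7.11.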

How the results depend on the processing

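The edgeR and DESeq2 fits that were planned were not run, because the deposited values are log2; voom on the recovered reads was run instead. CEBPD was a DEG lower in 2 to 4 chemicals with any 1 pool left out and in 0 with a separate fit for each chemical, where 9 pools set the spread. Its F test passed in all 9 alternatives and with every pool left out. With same-day controls, or day as a term, the mean of CEBPD over all chemicals was -0.62, and 2,7-dimethyl- (0.50), 2,6-diethyl- (0.40) and 1,2-dimethylnaphthalene (0.19) turned above 0. The mean was -0.68 (adjusted p = 0.053) both with TMM scaling and with pools centred on their median, no longer past the threshold. CEBPD with 2,7-dimethylnaphthalene was 0.00768 with TMM. CEBPD with 2-isopropylnaphthalene became a DEG with voom (-1.20, adjusted p = 0.046). The mean of CEBPZ was 0.027 with TMM and 0.022 when centred. With no fold threshold CEBPA was called in 1 chemical. In fits of a pair alone CEBPA passed in 0 structure pairs. The r of CEBPB and CEBPD was 0.088 within day 2. The cause of these changes was not tested.

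With the replicate letter as a block, which does not pair the pools, the mean of CEBPD was -0.66 (adjusted p = 0.082), that of CEBPZ 0.0037, CEBPD with 2,7-dimethylnaphthalene 0.027, and CEBPD with 1,7-dimethylnaphthalene -0.98 (adjusted p = 0.042), under the fold threshold. The block changed no other call of the C/EBP genes.

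With 1 pool left out, the mean of CEBPD ranged from -0.95 to -0.52 and that of CEBPZ from -0.085 to 0.071. CEBPD ranged from -0.37 to 0.055 with 2,6-diethyl- and from -0.27 to 0.16 with 2,7-dimethylnaphthalene. CEBPA passed in 0 to 3 pairs. Between the control days 0 to 18 genes passed, with 0 in the full comparison and 18 without day 1 pool C, and the difference of CEBPB ranged from -0.84 to 1.38 and that of CEBPZ from -0.24 to 0.23. The day 1 effect ranged from -0.30 to 1.91 for CEBPB and from -0.57 to 0.27 for CEBPD, and the day 2 minus day 1 effect of CEBPB from -1.38 to 0.84. Precision is limited by the 5 control pools, 2 of them of day 1, and for CEBPB by an SD of 0.88 between pools of a group.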
